A study of Homo sapiens with 12 samples.

Results

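The very long genes described here are the 889 autosomal genes that span at least 300000 bases between their first and last annotated base, out of 43828 gene entries in the deposited tables. The rule used annotated length and chromosome, with antisense entries left out, and was set with earlier results of these data known. Of the 889 genes, 458 had enough exon reads to test and 836 had enough intron reads, and all 458 were tested in both. Of the 431 not tested in exon reads, 150 had no exon read in any library, which allows up to 3 reads each.

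The RNA came from CCRF-CEM, an established human T lymphoblast leukemia line, in a SLFN11-positive parent form and a form with SLFN11 knocked out. SLFN11 is a nuclear protein that blocks replication in cells under DNA damage. Each form received the solvent DMSO or camptothecin at 100 nM for 4 h, which gave 4 groups of 3 libraries: Parent control, Parent camptothecin, SLFN11KO control and SLFN11KO camptothecin. All cultures shared the same serum-supplemented medium, and the labels place all libraries in a single paired-end instrument run. Nothing in the labels tells how SLFN11 was disrupted or whether the knockout line is 1 clone, so effects of a clone and of the genotype cannot be told apart. Nor are the replicates said to be separate cultures, and the p-values reflect no more than the scatter among libraries within the groups. The spread was estimated from all 12 libraries together. Leaving out a library can therefore change calls in comparisons that it is not part of.

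Camptothecin traps topoisomerase I, the enzyme that relaxes the twisted DNA ahead of and behind a moving RNA polymerase, on the DNA it has cut. A polymerase must travel the whole length of a gene before the last exon is copied, and a very long gene is nearly all intron. Exon reads come mainly from finished messenger RNA, and intron reads mainly from RNA that is still being made or has not yet been spliced.

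The 889 genes had a median length of 437432 bases and reached 2304638 bases in CNTNAP2, which was not tested in exon reads. The length class of 300 to 500 kb held 558 of them, that of 500 to 1000 kb held 272, and 59 were longer than 1000 kb. Exons made up a median of 1.42% of their length, against 28.4% over all genes. Their exons added up to a median of 7106 bases, against 2669 bases over only those genes that were tested. Among the 768 that matched a RefSeq gene by symbol, 742 were protein coding and 23 were long noncoding RNAs. Chromosome 3 held 89 and chromosome 2 held 86, and the fewest, 3, lay on chromosome 19.

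Promoters of 6 genes are shown because these are the very long genes whose exon reads rose most (PDE4D, PCDH9, RASGEF1B) and fell most (ST6GALNAC3, PTPRD, TNIK) in parent cells, among those called, with a mean of at least 1 CPM (a read count scaled to the library total), no overlap between groups and a match in the promoter table. Each runs from 250 bases before to 50 bases after the RefSeq gene start on GRCh38.p14, another build than the hg19 of the counts, 5′ to 3′ on the gene's strand. Capitals mark the motifs found on either strand. The start used in these cells was not measured, and PDE4D has several.
PDE4D: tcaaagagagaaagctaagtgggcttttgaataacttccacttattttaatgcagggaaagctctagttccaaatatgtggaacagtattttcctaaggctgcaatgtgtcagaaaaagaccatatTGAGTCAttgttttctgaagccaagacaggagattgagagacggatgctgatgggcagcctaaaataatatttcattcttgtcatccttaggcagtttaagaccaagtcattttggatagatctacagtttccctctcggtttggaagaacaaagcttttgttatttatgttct
PCDH9: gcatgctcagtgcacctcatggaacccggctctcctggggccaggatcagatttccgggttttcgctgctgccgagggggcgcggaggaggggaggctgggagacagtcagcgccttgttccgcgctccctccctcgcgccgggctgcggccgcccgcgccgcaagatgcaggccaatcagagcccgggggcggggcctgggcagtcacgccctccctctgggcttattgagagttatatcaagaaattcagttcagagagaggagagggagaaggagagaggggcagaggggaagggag
RASGEF1B: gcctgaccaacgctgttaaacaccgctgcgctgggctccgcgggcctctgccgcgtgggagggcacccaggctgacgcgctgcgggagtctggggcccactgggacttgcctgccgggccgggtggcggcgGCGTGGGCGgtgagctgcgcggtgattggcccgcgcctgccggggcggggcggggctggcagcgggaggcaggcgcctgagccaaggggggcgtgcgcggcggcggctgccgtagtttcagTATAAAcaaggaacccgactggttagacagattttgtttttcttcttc
ST6GALNAC3: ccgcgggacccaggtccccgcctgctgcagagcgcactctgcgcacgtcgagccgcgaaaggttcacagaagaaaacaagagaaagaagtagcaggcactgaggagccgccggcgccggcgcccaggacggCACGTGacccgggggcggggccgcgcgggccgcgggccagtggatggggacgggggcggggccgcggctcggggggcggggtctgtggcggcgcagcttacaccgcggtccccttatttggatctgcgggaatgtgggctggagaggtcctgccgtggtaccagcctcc
PTPRD: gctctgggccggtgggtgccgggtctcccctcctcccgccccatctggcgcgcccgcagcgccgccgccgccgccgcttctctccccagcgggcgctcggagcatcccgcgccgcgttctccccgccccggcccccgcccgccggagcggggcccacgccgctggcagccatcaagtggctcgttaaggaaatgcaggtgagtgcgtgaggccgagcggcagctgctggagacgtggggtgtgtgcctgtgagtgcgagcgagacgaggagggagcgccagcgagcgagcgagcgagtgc
TNIK: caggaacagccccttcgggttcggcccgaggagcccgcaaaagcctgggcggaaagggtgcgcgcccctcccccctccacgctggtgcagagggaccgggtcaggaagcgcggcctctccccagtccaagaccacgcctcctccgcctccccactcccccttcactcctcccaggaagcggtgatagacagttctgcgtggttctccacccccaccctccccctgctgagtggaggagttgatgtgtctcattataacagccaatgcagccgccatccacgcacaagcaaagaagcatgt
The PDE4D window lies at chr5:60496237-60496536 on the minus strand, holds the AP-1 motif TGANTCA and has only 2 CG dinucleotides. The PCDH9 window, chr13:67230287-67230586 minus, holds none of the motifs searched. The RASGEF1B window, chr4:81471858-81472157 minus, holds the EGR motif GCGTGGGCG and the TATA box TATAAA. The ST6GALNAC3 window, chr1:76074496-76074795 plus, holds the E-box CACGTG, while PTPRD at chr9:10612953-10613252 minus and TNIK at chr3:171460359-171460658 minus hold none. Over the 587 very long genes with a promoter in the table, 6.98% held TATAAA, 3.75% TGANTCA, 2.21% the CRE motif TGACGTCA, 0.852% GCGTGGGCG and 6.81% CACGTG. Over all 35116 promoters of the table the shares were 11.5%, 7.71%, 1.85%, 0.795% and 7.26%. The very long genes had a median of 22 CG dinucleotides per window, and all promoters 14. These are matches of letters and no evidence of binding.

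Exon reads per library came to between 42439957 and 63606344, except for Parent control replicate 1 with 135592046. That library also stood apart from the other Parent control libraries in its gene counts, and its name follows another pattern. Several results that turn on it are therefore given without it as well. SLFN11 exon reads were 112 ± 4.93 CPM (reads scaled to the library's total, SD, n = 3) in Parent control and 86.9 ± 1.58 in SLFN11KO control, so the knockout cells still carried the transcript and these reads do not check the loss of the protein. All 14 T lymphoblast markers were at 1 CPM or more. Myeloid and erythroid markers did not reach 1 CPM, 3 of 5 B lineage markers found did (summed 29.0 to 54.5 CPM in any library), and epithelial and fibroblast markers summed to between 1.94 and 9.34 CPM with COL1A2 listed at 0.

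Very long genes took a smaller share of all exon reads in camptothecin-treated cells of either genotype. The share was 1.44%, 1.39% and 1.39% in the Parent control libraries and 0.827%, 0.833% and 0.856% in the Parent camptothecin libraries. It was 1.47%, 1.5% and 1.45% in SLFN11KO control and 0.989%, 0.995% and 1.10% in SLFN11KO camptothecin. Treated and untreated libraries did not overlap in either genotype, and the 3 Parent camptothecin libraries lay below all 3 SLFN11KO camptothecin libraries.

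Intron reads did not follow the same course. Very long genes held 6.68% ± 0.282 (SD, n = 3) of all intron reads in Parent control and 5.58% ± 0.142 in Parent camptothecin, again without overlap. In knockout cells the share was 7.19% ± 0.169 without and 7.22% ± 0.53 with camptothecin, and the libraries overlapped. SLFN11KO camptothecin replicate 3 was the highest library at 7.82%, against 6.99% and 6.84% in replicates 1 and 2 of its group. The SLFN11KO control libraries had 7.21%, 7.35% and 7.01%. Replicates 1 and 2 with camptothecin thus lay slightly below all of these, and the overlap rests on replicate 3 alone. Per exon read, these genes had 1.57, 2.06 and 2.17 intron reads in Parent control, 2.75 ± 0.0933 (SD, n = 3) in Parent camptothecin, 2.0 ± 0.0614 in SLFN11KO control and 3.23 ± 0.315 in SLFN11KO camptothecin. The low Parent control library was replicate 1, and without it the other two lay within or above the SLFN11KO control range of 1.94 to 2.07. In bulk RNA, fewer cells that express a gene and less of its RNA per cell cannot be told apart, and a share can move because other genes moved.

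**Figure D1:**
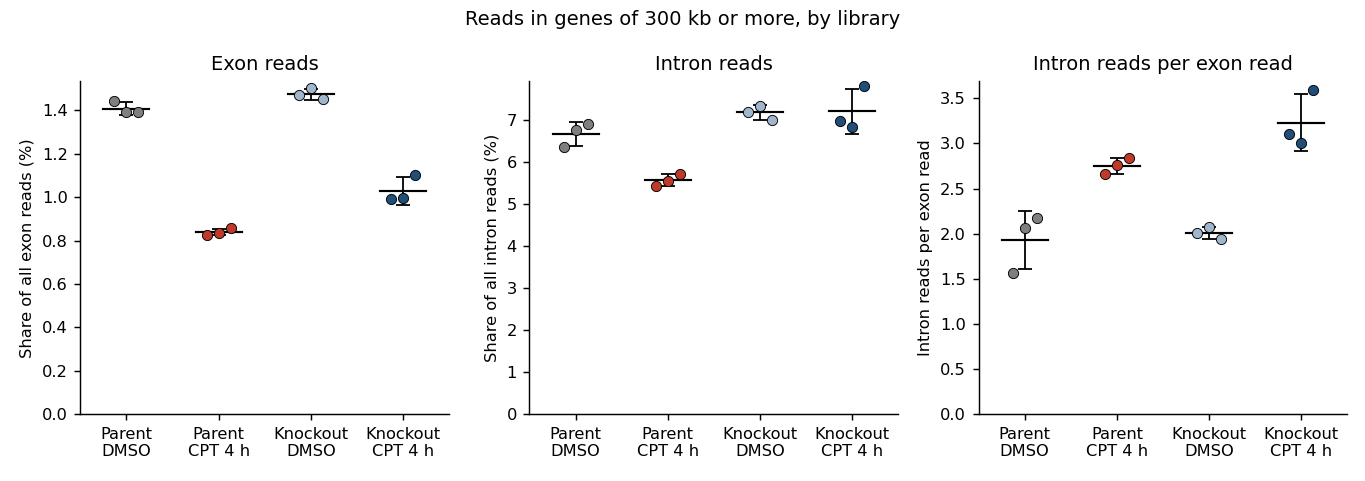
Share of all exon reads and of all intron reads (percent) held by the very long genes, and their intron reads per exon read, in the 12 libraries by group. Points are libraries and bars are the mean and SD of 3. Exon shares sit between 0.827% and 0.856% in Parent camptothecin and between 1.39% and 1.44% in Parent control. The intron shares of the knockout groups overlap through SLFN11KO camptothecin replicate 3 alone.

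The exon reads of most tested very long genes fell with camptothecin in parent cells. Of the 458 tested, 278 fell and 13 rose (edgeR quasi-likelihood test, Benjamini-Hochberg adjusted p below 0.05 over 23546 genes), while over all genes tested 17.1% were called lower and 16.8% higher. The median log2 change was -0.75 for very long genes and 0.01 for all genes. Of the 458, 139 fell and had a change of at least 2-fold down. The lower quartile of the log2 change was -1.1, against -0.293 over all genes. Libraries of both groups were fully separate for 70.7% of the very long genes, against 44.8% of all genes.

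PLCB1, a phospholipase C that makes second messengers downstream of G proteins (hg19 chromosome 20, 8112823 to 8949002), had one of the largest changes. Its exon reads were 76.8, 62.2 and 63.1 CPM in Parent control and 13.4, 13.9 and 13.7 CPM in Parent camptothecin. In knockout cells they were 60.8, 63.4 and 60.2 CPM without and 14.4, 16.2 and 16.7 CPM with camptothecin. Treated and untreated libraries were far apart in both genotypes, and PLCB1 exon reads fell by 2.30 ± 0.0848 (SE, log2, adjusted p 5.65e-12) in parent and by 1.97 ± 0.0843 (adjusted p 1.03e-10) in knockout cells by edgeR.

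PTPRD, a receptor tyrosine phosphatase of the cell surface, is the longest gene tested in exon reads (2298478 bases, chromosome 9, 8314245 to 10612722). Its exon reads were 56.8, 58.9 and 57.5 CPM in Parent control against 13.1, 11.5 and 12.4 CPM in Parent camptothecin. SLFN11KO control had 52.8, 52 and 51.3 CPM and SLFN11KO camptothecin 14.7, 14.8 and 20.6 CPM. No treated library reached an untreated one, and PTPRD fell by 2.23 ± 0.104 in parent (edgeR adjusted p 1.03e-10) and by 1.64 ± 0.102 in knockout cells (adjusted p 6.43e-09).

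ST6GALNAC3, which adds sialic acid to glycoproteins and glycolipids, had the largest fall of a very long gene at 1 CPM or more, 2.36 ± 0.217 in log2 in parent cells (adjusted p 2.85e-07, edgeR). It was a low gene, at 3.88, 3.08 and 5.15 CPM in Parent control and 0.788, 0.761 and 0.806 CPM in Parent camptothecin. PARD3, a scaffold of cell polarity, dropped by 2.03 ± 0.0897 (adjusted p 5.7e-11), from 134, 104 and 103 CPM to 28.9, 27.4 and 27.3 CPM. TNIK, a protein kinase of the Wnt pathway, dropped by 2.08 ± 0.228 (adjusted p 2.21e-06), and HS3ST4, a sulfotransferase of heparan sulfate, by 2.01 ± 0.114 (adjusted p 1.07e-09). All 4 genes were also called lower in knockout cells, with log2 changes of -1.5, -1.68, -1.17 and -1.25 in the same order.

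**Figure D2:**
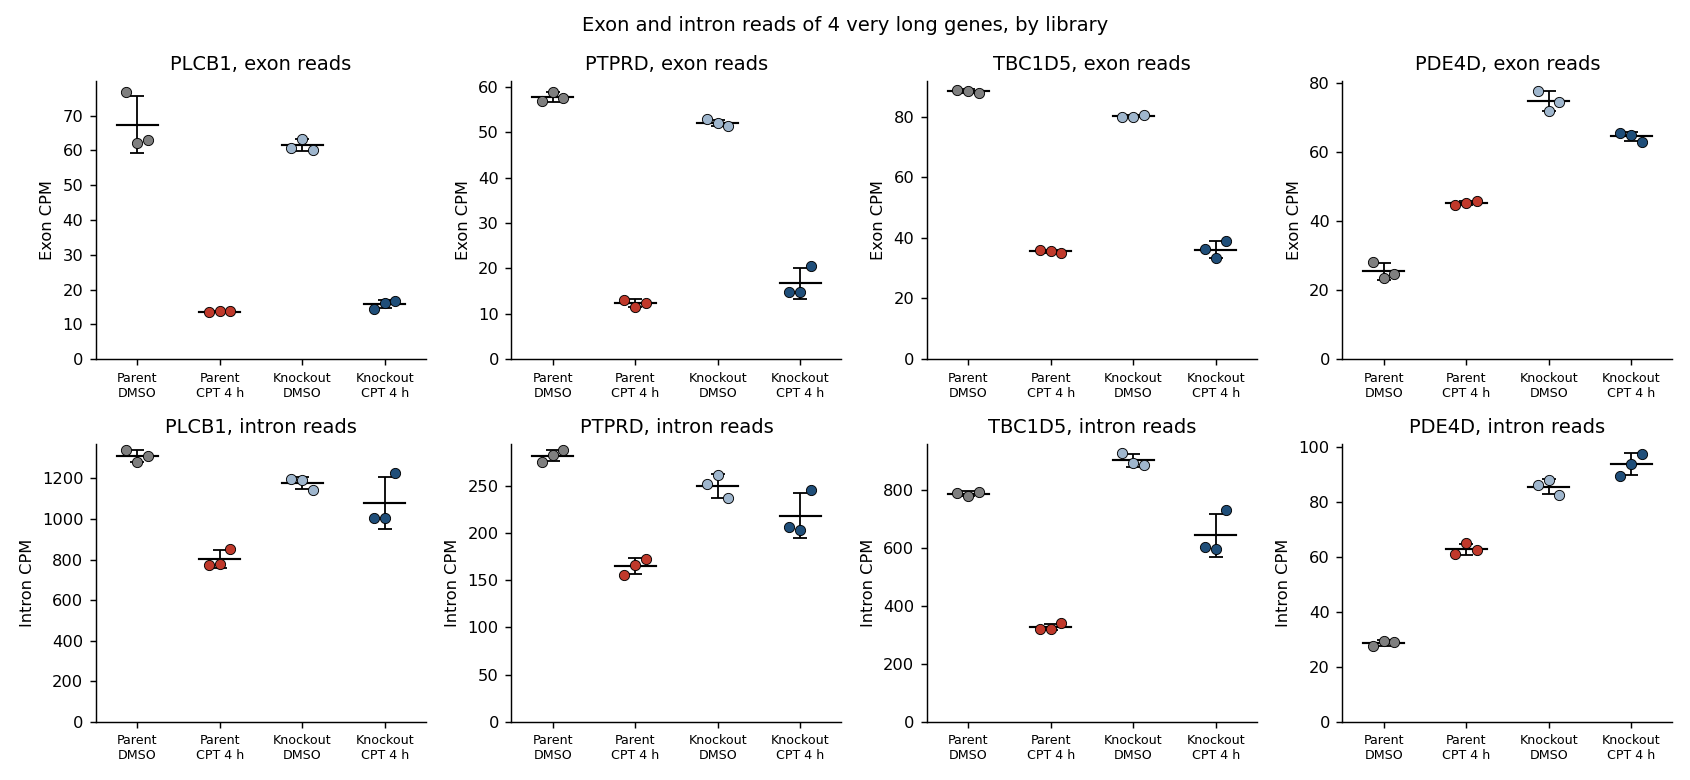
Exon and intron reads (CPM, each scaled to its own kind of read) of PLCB1, PTPRD, TBC1D5 and PDE4D in each library by group. Points are libraries and bars are the mean and SD of 3. PLCB1 and PTPRD exon reads are far lower in both camptothecin groups, while PDE4D is higher in Parent camptothecin than in Parent control.

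In knockout cells 235 of the 458 genes fell and 4 rose in exon reads, while over all genes 16.6% were called, 9.28% lower and 7.3% higher. The median log2 change was -0.51, against 0.02 over all genes, and 62 genes fell and had a change of at least 2-fold down. The lower quartile was -0.881, against -0.188 over all genes. The 4 that rose were PCDH9, C2orf88, FRMD4B and KCNMB2; this count moved between 2 and 13 as single libraries were left out, with 13 when Parent control replicate 1 was left out and 2 without SLFN11KO control replicate 1. The comparisons of the 2 genotypes share no library. The 225 genes that fell in both made up 80.9% of those that fell in parent and 95.7% of those that fell in knockout cells. The same overlap was not counted over all genes, so it is not shown to be particular to very long genes. Scaling by library size alone moved the median of all genes to 0.14 in parent and 0.17 in knockout cells, and the very long genes then had medians of -0.62 and -0.36 (253 fell in parent cells).

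The fall in exon reads was spread unevenly over gene length. In parent cells the median log2 change was 0.05 for genes under 10 kb, 0.11 at 10 to 30 kb, 0.00 at 30 to 100 kb, -0.21 at 100 to 300 kb, -0.70 at 300 to 500 kb, -0.89 at 500 to 1000 kb and -0.56 over 1000 kb. The last class rests on 19 genes. The share called lower was 41.8% of 2171 genes at 100 to 300 kb, 60% of 310 genes at 300 to 500 kb, 64.3% of 129 genes at 500 to 1000 kb and 47.4% of the 19 genes over 1000 kb, of which 15.8% were called higher. Knockout cells had medians of -0.14, -0.48, -0.65 and -0.27 in the 4 classes from 100 kb up. Within the very long genes length ordered the exon change weakly, with a Spearman correlation across genes of -0.18 in parent and -0.16 in knockout cells.

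**Figure D3:**
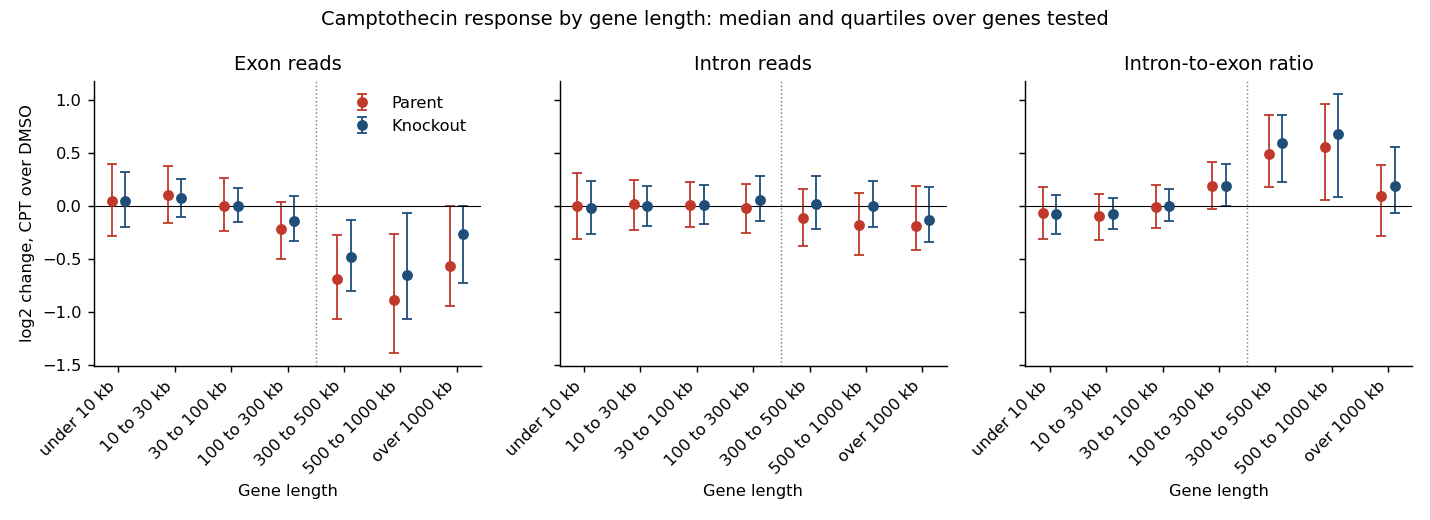
Median log2 change of exon reads, intron reads and the intron-to-exon ratio with camptothecin by gene length class (kb), for parent and knockout cells. Vertical bars are the quartiles over genes and the dotted line marks 300 kb. The exon medians run from near 0 below 100 kb to -0.89 in parent and -0.65 in knockout cells at 500 to 1000 kb.

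Genes close to the length limit varied in their exon changes on both sides of it. The nearest genes below it that were tested in exon reads were PCBP3, an RNA-binding protein of 298761 bases, with log2 changes of -0.52 in parent and -0.74 in knockout cells, and MIR4435-1HG, a noncoding host gene of a microRNA of 298751 bases, with -0.06 and -0.31. Just above it stood RP11-302M6.4 of 300111 bases with -0.29 and 0.08, and HSD17B12, an enzyme of fatty acid elongation of 300182 bases, with -0.83 and -0.62, although only 23.3% of its exon reads lay where no other gene overlaps.

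The share called lower was larger at higher exon levels, which is given as a description with no test. Ranked by exon CPM in untreated cells of the other genotype, the lowest-ranked 152 genes had 20.4% called lower in parent cells, the middle 153 had 72.5% and the highest 153 had 88.9%. The medians were -0.39, -0.69 and -0.96, so both the change and the number of reads rose with the rank. Knockout cells gave 12.5%, 55.6% and 85.6%. Split into 3 by exon length, the genes had shares of 63.2%, 56.2% and 62.7% in parent cells.

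The intron reads changed less, also on the 458 genes tested in both kinds of read. On those genes the median change in parent cells was -0.222 in introns and -0.749 in exons. In knockout cells it was 0.0381 in introns and -0.508 in exons. The counts that follow cover all 836 genes tested in introns, a wider set that includes genes too low to test in exons. In parent cells 211 of 836 fell and 46 rose, against 14.2% lower and 12.1% higher over all 19908 genes tested, and the median was -0.14 against 0.00. In knockout cells 68 fell and 89 rose, against 16.9% of all genes called, 9.05% lower and 7.85% higher, with a median of 0.00 against 0.00. Knockout introns rose in 10.6% of the very long genes, fewer than the 17% of 2704 genes of 100 to 300 kb. By class the share was 13.3% at 300 to 500 kb, 6.34% at 500 to 1000 kb and 6.9% over 1000 kb. The knockout split depended on the scaling and on 1 library: 92 rose and 28 fell with introns scaled by the exon reads, 144 and 42 by library size alone, and 69 and 96 without SLFN11KO camptothecin replicate 3. In parent cells library size alone gave 84 higher and 159 lower, and leaving out Parent camptothecin replicate 2 or 3 lowered the 46 that rose to 30 or 29.

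TBC1D5, which switches off Rab GTPases in endosome traffic, fell in both introns and exons in parent cells. Its intron reads were 793, 780 and 794 CPM in Parent control and 320, 322 and 341 CPM in Parent camptothecin, a drop of 1.27 ± 0.0752 in log2 (edgeR adjusted p 5.42e-11), beside 1.32 ± 0.0609 in exon reads. In knockout cells the intron reads were 931, 896 and 887 CPM without and 603, 598 and 732 CPM with camptothecin, which dropped by 0.49 ± 0.0741 (adjusted p 6.81e-05). PLCB1 differed: its introns fell by 0.71 ± 0.0769 in parent cells (adjusted p 3.43e-07), while in knockout cells the log2 change was -0.13 (adjusted p 0.287), beside exon falls of 2.30 and 1.97. FAM13A had the largest named intron fall, 1.63 in parent cells (adjusted p 1.39e-09), and ALDH1A2, which makes retinoic acid, fell by 1.31 in introns.

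The intron-to-exon ratio, fitted on the exon and intron reads of each library together, rose in 224 very long genes in each genotype. Of 458 tested it also fell in 15 in parent cells, where 10.1% of all 17351 genes were called higher and 8.37% lower, and the median was 0.49 against -0.02. In knockout cells it fell in 2, against 7.08% of all genes called, 5.17% higher and 1.91% lower, with a median of 0.60 against -0.02. The 190 genes called higher in both were 84.8% of either set. The exon change was below the intron change in 369 of 458 genes in parent and 377 of 458 in knockout cells. Neither the overlap nor these signs were counted over all genes. The rises in the ratio are relative to the typical gene, since each kind of read was scaled on its own. They were not confined to very long genes. In parent cells the ratio was called higher in 27.7% of genes of 100 to 300 kb, 49.4% at 300 to 500 kb, 51.9% at 500 to 1000 kb and 21.1% over 1000 kb. Knockout cells had 21.6%, 49.7%, 50.4% and 26.3% in the same order.

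Calls for exon and intron reads combined in several ways. The combinations were counted for the very long genes only, so they cannot be set against other genes. In parent cells 153 genes fell in both, with median log2 changes of -1.12 in exons and -0.50 in introns, 115 fell in exons with no intron call, and 10 fell in exons and rose in introns. In knockout cells 46 fell in both, 156 fell in exons with no intron call, and 33 fell in exons and rose in introns. KCNQ5, a voltage-gated potassium channel, was of the last kind in knockout cells: exon reads fell by 1.38, and intron reads were 438, 436 and 418 CPM without and 525, 515 and 593 CPM with camptothecin, a rise of 0.34 (adjusted p 0.00208, edgeR). The largest rises in the ratio included ST6GALNAC3 with 1.84 in parent and 1.69 in knockout cells, LTBP1, which binds latent TGF-beta, with 1.59 and 1.33, and PLCB1 with 1.58 and 1.83.

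Reads of nested or overlapping genes enter these counts. Under 90% of exon reads lay where no other gene overlaps for 140 of the 458 genes, and under 90% of intron reads for 258. Counting such unshared reads only, 260 genes fell in exon reads in parent cells, and 257 of them were among the 278.

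**Figure D4:**
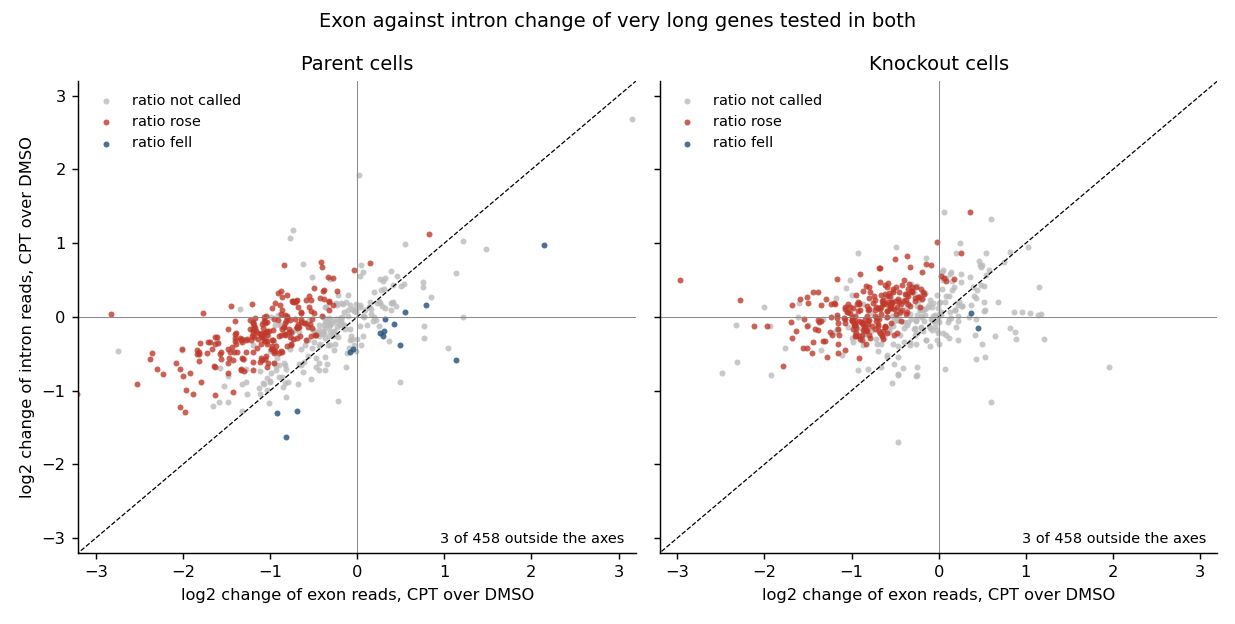
Log2 change of exon reads (x axis) against that of intron reads (y axis) with camptothecin for the 458 very long genes tested in both, in parent and in knockout cells. Points are genes, red where the intron-to-exon ratio rose, blue where it fell and grey where it was not called, and 3 genes lie outside the axes in each panel. Most points lie above the diagonal, 369 in parent and 377 in knockout cells.

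The groups of genes below were drawn up with earlier results of these data known, and their counts only describe these genes. The groups share members, so the same gene can enter several of the counts. For example, the T lymphocyte group shares DOCK2 and VAV3 with the GTPase regulators and CELF2 and TCF12 with the transcription regulators. EXOC4 is in both the fragile site and the trafficking group. Over all very long genes, exon reads fell in 278 of 458 in parent and 235 in knockout cells, intron reads fell in 211 and 68 of 836, and the ratio rose in 224 of 458 in each. Over all genes tested, 17.1% and 9.28% were called lower in exons, 14.2% and 9.05% lower in introns, and 10.1% and 5.17% higher in the ratio.

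Of the long genes of the T lymphocyte program, 13 of 14 tested fell in exon reads in parent cells and none rose, with a median of -1.05, and 11 fell in knockout cells with a median of -0.93. Their introns fell in 12 of 14 and rose in 1 in parent cells (median -0.47), and fell in 3 and rose in 1 in knockout cells (median -0.04). The 14 T lymphoblast markers summed to between 2154 and 2369 CPM in Parent control, 1591 and 1609 in Parent camptothecin, 2489 and 2507 in SLFN11KO control and 1966 and 2005 in SLFN11KO camptothecin, lower with the drug in both genotypes. Their part in this group's change was not tested. VAV3, a signaling protein behind antigen receptors, was at 272, 226 and 223 CPM in Parent control and 61.8, 60.3 and 63.3 CPM in Parent camptothecin, and fell by 1.96 and by 1.56 in the 2 genotypes. DOCK2, which activates Rac in lymphocytes, was at 431, 411 and 397 CPM in Parent control and 210, 218 and 215 CPM in Parent camptothecin and fell by 0.95 and 0.91. CELF2, an RNA-binding regulator of splicing, fell by 1.03 and 0.81, and TCF12, an E protein that pairs with T cell transcription factors, by 1.4 and 1.24. RUNX1 fell by 0.52 in parent cells (adjusted p 0.0129) and had -0.27 in knockout cells (adjusted p 0.244), both by edgeR.

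The group of transcription and chromatin regulators also held RNA-binding proteins such as MSI2 and CELF2. Of its members, 23 of 34 tested fell and 2 rose in parent cells (median -1.01), and 20 fell in knockout cells (median -0.82). TOX, a regulator of T cell development, dropped by 2.0 and 1.54, and MSI2, an RNA-binding protein of blood stem cells, by 1.4 and 1.33. Their ratio of intron to exon reads rose in 20 and fell in 3 in parent cells, and rose in 19 in knockout cells.

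Among 28 kinases, phosphatases and second messenger enzymes, 18 fell and 2 rose in parent cells (median -0.89), and 16 fell in knockout cells (median -0.42). PRKCB, a protein kinase C of lymphocyte receptor signaling, fell by 1.28 and 1.07. ITPR2, a calcium channel of internal stores, fell by 1.48 and 1.28. PRKCE and PDE4D were the 2 that rose. GTPase regulators fell in 16 of 23 in parent and 14 of 23 in knockout cells (medians -0.80 and -0.51), and none rose. TIAM1, a Rac exchange factor, fell by 1.06 and 0.58, and its intron changes of -0.08 (adjusted p 0.62) and 0.20 (adjusted p 0.173), in the same order, were not called by edgeR.

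Ubiquitin, vesicle and trafficking genes had the most uniform counts of the 8 groups in parent cells, with 25 of 26 lower and none higher (median -0.95), and 21 lower in knockout cells (median -0.76). Their ratio rose in 22 in either genotype. LRBA, a vesicle protein needed to recycle CTLA4, fell by 1.19 and 0.99, and NBAS, of transport between Golgi and endoplasmic reticulum, by 1.02 and 0.95. Genome maintenance and cell cycle genes fell in 13 of 16 in parent and 10 of 16 in knockout cells (medians -0.87 and -0.60). STAG1, a cohesin subunit, fell by 1.33 and 1.14, and CLASP1, which stabilizes microtubules, by 0.79 and 0.55.

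Cell adhesion and synapse genes were mostly too low to test: 14 of 52 were tested in exons, of which 8 fell and 1 rose in parent cells (median -1.22) and 6 fell and 1 rose in knockout cells (median -0.44). CDH4, a cadherin, dropped by 1.82 and 1.38, while PCDH9, a protocadherin, rose. Common fragile site genes, long genes at which chromosomes tend to break under replication stress, fell in 9 of 16 and rose in 1 in parent cells (median -0.76) and fell in 8 in knockout cells (median -0.63). Their ratio rose in 5 and fell in 3 in parent cells (median 0.26) and rose in 6 and fell in none in knockout cells (median 0.30). DPYD, the first enzyme of pyrimidine breakdown, was at 87.5, 94.8 and 95.1 CPM in Parent control and 32, 34.3 and 36.9 CPM in Parent camptothecin and fell by 1.43 and 1.45. FHIT, a hydrolase of dinucleotides, fell in introns by 1.28 and 0.72 and in exons by 0.69 (edgeR adjusted p 0.0414) and 0.92 (adjusted p 0.017), and its exon call in parent cells was lost in 11 of the alternatives, 7 of which left out a library. WWOX, an oxidoreductase, fell by 0.84 and 0.55 in introns and by 0.53 and 0.47 in exons.

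The 13 genes whose exon reads rose in parent cells included several that went the other way in knockout cells. PDE4D, which breaks down cyclic AMP (chromosome 5, 58264864 to 59817946), was at 28.2, 23.4 and 24.7 CPM in Parent control and 44.7, 45.3 and 45.9 CPM in Parent camptothecin, a rise of 0.83 ± 0.0689 (edgeR adjusted p 9.28e-08). In knockout cells it was at 77.9, 72.0 and 74.6 CPM without and 65.7, 65.0 and 63.0 CPM with camptothecin, a log2 change of -0.21 (adjusted p 0.0401) whose call was lost in 12 of the alternatives. The knockout cells were above every parent library with or without the drug. Its intron reads rose by 1.13 ± 0.0724 in parent cells (adjusted p 1.42e-10), from 27.5, 29.3 and 29.1 CPM to 60.9, 64.9 and 62.3 CPM.

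PRKCE, a protein kinase C, and PCSK5, a protease that cuts proproteins, had the same signs as PDE4D. PRKCE was at 36.8, 34.6 and 35.3 CPM in Parent control and 44.0, 45.3 and 43.9 CPM in Parent camptothecin and rose by 0.32 (adjusted p 0.000405), while in knockout cells it fell by 0.24 (adjusted p 0.00735), both by edgeR. The knockout call was lost without SLFN11KO control replicate 3 and with library size alone. PCSK5 rose by 0.26 (adjusted p 0.0349), a call lost in 8 of the alternatives, and fell by 0.60 in knockout cells (adjusted p 0.000138). PCDH9 rose in both, by 0.79 ± 0.088 and 0.37, from 34.5, 26.4 and 27.6 CPM to 49.2, 51.5 and 52.5 CPM in parent cells, while its intron changes of 0.16 and 0.05 were not called. Its knockout call was lost without SLFN11KO control replicate 3. RASGEF1B, an exchange factor for Rap GTPases, rose by 0.75 ± 0.143 in parent cells (adjusted p 0.000575), from between 2.33 and 2.82 CPM to between 4.10 and 4.47 CPM. C2orf88 and KCNIP4 also rose, but only 12.2% and 0.826% of their exon reads lay where no other gene overlaps. The others were AUTS2, AVL9, BACH1, SHISA9, TRPS1 and 1 clone-named entry.

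The response differed between the genotypes for a minority of the very long genes, mostly in 1 direction. In exon reads the difference of responses (knockout minus parent) was called for 44 of 458, 37 above 0 and 7 below, while 6.32% of all genes were called, 1.84% above and 4.47% below. The median difference was 0.22 for very long genes and 0.02 for all genes. The count was 79 without Parent control replicate 1 and between 23 and 28 without any single Parent camptothecin or SLFN11KO control library. For 347 of 458 genes the parent change lay below the knockout change, a sign not counted over all genes. The quartiles of the difference were 0.0143 and 0.415, against -0.228 and 0.258 over all genes. With single libraries left out the median difference ran from 0.154 to 0.25, lowest without SLFN11KO camptothecin replicate 3.

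Intron reads gave 138 of 836 genes with a called difference, 132 above 0 and 6 below, against 5.82% called over all genes, 3% above and 2.81% below. The median difference was 0.23 against 0.03, and 0.149 without SLFN11KO camptothecin replicate 3. Scaling introns by the exon reads lowered the count to 69, and it was 88 without Parent camptothecin replicate 1 and 86 without SLFN11KO control replicate 3. In 11 genes the intron reads fell in parent and rose in knockout cells: AUTS2, DACH1, DPH6, FBXL17, KCNQ5, MED12L, NEGR1, PTPRK, RUNX2, SPATA5 and ZFPM2. Such opposite calls were not counted over all genes, so they are not shown to be particular to very long genes. The genes listed were chosen after their values were seen. NEGR1, a cell adhesion protein, was at 97.6, 92.0 and 88.4 CPM in Parent control, 65.8, 66.1 and 68.9 CPM in Parent camptothecin, 112, 112 and 100 CPM in SLFN11KO control and 136, 132 and 140 CPM in SLFN11KO camptothecin. Neither pair of groups overlapped, and the difference was 0.81 (edgeR adjusted p 2.26e-05).

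Among single genes with a called exon difference, HS3ST4 fell by 2.01 in parent and 1.25 in knockout cells (difference 0.76, adjusted p 0.007) and LTBP1 by 1.45 and 0.68 (difference 0.77, adjusted p 0.00568), by edgeR. INPP4B, a lipid phosphatase, fell by 1.0 in parent cells and had 0.19 in knockout cells (difference 1.19, adjusted p 0.0105). PTPRD had a difference of 0.58 (adjusted p 0.0199) that was lost without Parent camptothecin replicate 2 or 3 or SLFN11KO control replicate 2 or 3. PDE4D went below 0, with -1.04 ± 0.0964 (adjusted p 2.21e-06).

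The intron-to-exon ratio was rarely called different in its response: 4 of 458 genes were called, all above 0, against 0.501% of all genes (0.288% above, 0.213% below). They were SMYD3, a lysine methyltransferase, TBC1D5, AVL9 and DPYD. In simulated counts the ratio test found 71.7% of 2-fold and 9.09% of 1.4-fold changes between treated and untreated parent cells. These shares are not for a difference of responses. In the data 239 of 458 genes were called in parent cells at a median ratio change of 0.49, so the simulated shares may not hold here. How many differences of responses the test misses is not known, and few calls do not show that the ratio responses were alike. TBC1D5 had a ratio change of 0.05 in parent cells (adjusted p 0.72), and its ratio rose by 0.65 ± 0.0711 in the knockout (adjusted p 2.38e-05), a difference of 0.61 ± 0.1 (adjusted p 0.017, edgeR). SMYD3 intron reads were 339, 321 and 342 CPM in Parent control, 204, 214 and 207 CPM in Parent camptothecin, 333, 327 and 324 CPM in SLFN11KO control and 322, 305 and 346 CPM in SLFN11KO camptothecin. They fell by 0.68 in parent cells, and in knockout cells the change was -0.02 (adjusted p 0.909, edgeR). No gene was called with introns scaled by the exon reads, and the count ran from 0 to 40 as single libraries were left out, with 40 without Parent control replicate 1 and 0 without Parent camptothecin replicate 1 or 2 or SLFN11KO control replicate 2 or 3.

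**Figure D5:**
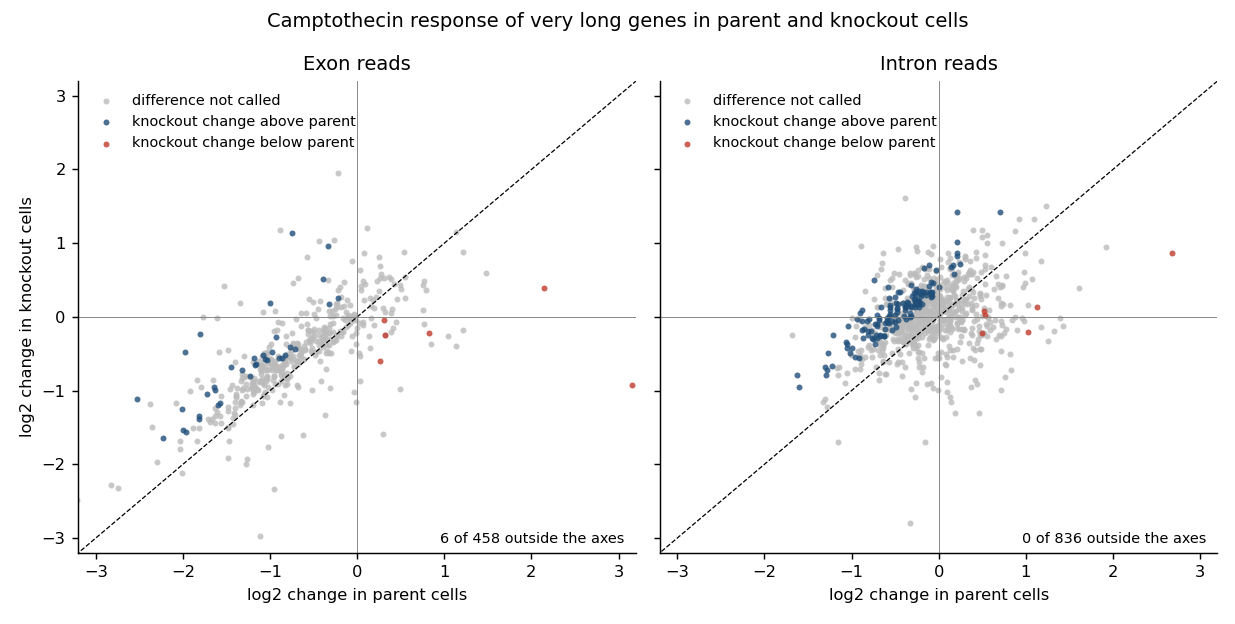
Log2 change with camptothecin in parent cells (x axis) against knockout cells (y axis) for exon reads (458 very long genes, 6 outside the axes) and intron reads (836 genes, 0 outside). Points are genes, blue where the knockout change was called above the parent change, red where it was called below. Blue points outnumber red ones, 37 to 7 in exon and 132 to 6 in intron reads.

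Without the drug the genotypes already differed in many very long genes, in both directions. Exon reads were called different for 130 of 458, 68 higher and 62 lower in knockout cells, against 15.7% of all genes (8.26% higher, 7.44% lower), with a median of -0.01 for both sets. Scaling by library size alone made the split 89 to 44. Intron reads were different for 190 of 836 (113 higher, 77 lower) against 14.6% of all genes (8.17% higher, 6.43% lower). The ratio differed for 8 of 458 (5 higher, 3 lower) against 0.732% of all genes, of which 0.363% lower, and the split was 3 to 1 with introns scaled by the exon reads. Without Parent control replicate 1 the splits were 87 higher to 61 lower in exons, 112 to 90 in introns and 6 to 7 in the ratio. The median of the ratio was 0.0327 with that library and -0.0451 without it, so its direction rests on that library.

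CDC42BPA, a kinase of the cytoskeleton, was far lower in knockout cells, with 10.4, 8.85 and 8.57 CPM in Parent control and 0.117, 0.0788 and 0.125 CPM in SLFN11KO control (log2 -6.45). SHISA9, a partner of glutamate receptors, was the reverse, with 0.111, 0.0764 and 0.129 CPM against 2.45, 2.78 and 2.78 CPM (log2 4.65). FRMD4B, a scaffold protein, was lower by 2.94 in log2, MSR1, a scavenger receptor, by 2.63 and SYNE1, a protein of the nuclear envelope, by 2.60, while FMN1, an actin nucleator, was higher by 2.04. FMN1 exon reads fell with camptothecin by 0.88 in parent and 0.79 in knockout cells from these unequal levels.

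The 5 longest genes tested in exon reads, PTPRD among them, gave mixed results. LSAMP, a neural adhesion protein, fell by 1.84 in parent cells (adjusted p 0.0079), a call lost without Parent control replicate 1, and had -0.86 in knockout cells (adjusted p 0.512, edgeR). CSMD1 had -0.56 (adjusted p 0.139) and -0.18 (adjusted p 0.715). NRXN3, a synaptic adhesion protein, had no exon call, but its introns fell by 1.17 (adjusted p 0.000315) and 0.69 (adjusted p 0.0151). EYS had no exon read outside stretches shared with other genes. Among the 8 long noncoding RNAs tested, 5 fell in parent cells (median -1.19) and 5 in knockout cells (median -0.96), beside 263 of 425 protein-coding genes in parent cells (median -0.76).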

How the data were processed

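RNA was sequenced from 12 CCRF-CEM libraries in 4 groups of 3. The deposited tables give each library's whole-number counts of exon and intron reads per gene, which the authors made by aligning to hg19; large counts are written to 6 significant digits. The submitters' processing notes name Trim Galore 0.6.2, Trimmomatic 0.39, STAR 2.5.4a and Picard 2.9.2 without their roles. The tables' names mark alignments with duplicates removed, and no molecular identifiers are named, so some true copies of abundant RNAs may have been lost. Which counting program and annotation were used, and whether strand was read, is not given in the sources used here; a gene and an antisense partner cannot be told apart.

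Exon counts and intron counts were each tested over all genes with edgeR 4.0.16 in R 4.3.3 (filterByExpr, TMM scaling, robust quasi-likelihood fit of a mean per group over all 12 libraries). The intron-to-exon ratio came from a joint fit of both counts (24 columns, a term per library). The 4 comparisons were: camptothecin against DMSO in parent cells, the same in knockout cells, the difference of these responses, and untreated knockout against parent cells. Called means a Benjamini-Hochberg adjusted p below 0.05 over all genes, and CPM are reads scaled to the TMM-adjusted total of the same kind of read, by edgeR's usual counts-per-million formula. SE is the log2 change divided by the square root of its F value. Exon and intron CPM are on different scales, and CPM are not per length. The code was tested on simulated counts. Correlations between same-numbered libraries (deviations from the group mean) lay between -0.0335 and 0.0319, so the numbers do not pair the libraries.

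Named genes are, per comparison and kind of read, called members that average 1 CPM or more and whose groups do not overlap (6 largest rises, 6 largest falls), the 5 longest tested, the 2 on either side of the length limit and up to 4 per gene group by mean exon CPM. BACH1, KCNIP4, TOX, CLASP1, TIAM1, AUTS2, TRPS1, KCNMB2, JMJD1C and the genes listed by opposite intron calls, among others, were chosen after their values were seen. The members and the gene groups were chosen with earlier results of these data known. Alternatives were library size alone, DESeq2 1.42.0, no filter, a stricter filter of 1 CPM in 3 libraries, only the groups compared, unshared reads, introns scaled as exons, a replicate block and each library left out; the ratio with introns scaled as exons was added after seeing the data.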

Additional observations from a re-analysis of the deposited data

Results flagged for a closer look

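The responses to camptothecin differed between the genotypes by the edgeR test of the difference itself (knockout minus parent, log2) in 44 very long genes in exon reads, 138 in intron reads and 4 in the intron-to-exon ratio. No cause was tested for any of them.

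In exon reads the knockout change lay above the parent change by 1.90 in CDC42BPA, 1.29 in FRMD4B, 1.19 in INPP4B, 0.913 in RARB, a retinoic acid receptor, 0.773 in LTBP1 and 0.76 in HS3ST4. CDC42BPA, FRMD4B and SHISA9 start from very different levels in untreated cells. In SLFN11KO control CDC42BPA was at 0.117, 0.0788 and 0.125 CPM and FRMD4B at 0.622, 0.749 and 0.418 CPM. SHISA9 was far below 1 CPM in Parent control. The knockout response of CDC42BPA and the parent response of SHISA9 thus rest on very few reads in untreated cells. The call for CDC42BPA was lost without SLFN11KO control replicate 2 or SLFN11KO camptothecin replicate 3. The calls for FRMD4B and RARB were each lost when any 1 of several libraries was left out. The knockout change lay below the parent change in SHISA9 (-1.76), PDE4D (-1.04), PCSK5 (-0.858), PRKCE (-0.563) and AVL9 (-0.351), of which AVL9 was lost when only unshared reads were counted.

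In intron reads the difference was 1.24 in SLCO3A1, a transporter, 1.22 in LRRC16A, a regulator of actin capping, 0.991 in AUTS2, 0.973 in INPP4B, 0.956 in CSGALNACT1, an enzyme of chondroitin synthesis, and 0.955 in ZNF385D. It was -1.81 in TRPS1, a transcription repressor, -1.24 in ATP2B2, a calcium pump, -1.0 in PDE4D, -0.723 in CTB-111H14.1, -0.51 in PRKCE and -0.436 in PCSK5. The last call was lost when any 1 of 8 libraries was left out. PDE4D, PRKCE and PCSK5 thus had a difference of the same sign in exon and intron reads.

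In the intron-to-exon ratio the difference was 0.722 in SMYD3, 0.607 in TBC1D5, 0.567 in AVL9 and 0.555 in DPYD. All 4 calls were lost with introns scaled by the exon reads, and each was also lost when any 1 of several libraries was left out.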

How the results depend on the processing

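Exon reads fell in 253 to 290 members in parent cells. The 4 members that rose in knockout cells numbered 20 with library size alone, 8 with the stricter filter, 9 with only the groups compared, 10 with DESeq2, and 2 to 13 with single libraries left out. Intron reads: the 46 parent rises became 84 with library size alone (29 to 55 with libraries left out); the 68 knockout falls became 42 with library size alone and 28 with introns scaled as exons (41 to 100), and the 89 knockout rises 144 with library size alone (64 to 124). The 15 parent falls of the ratio became 4 with introns scaled as exons and 8 with only the groups compared (7 to 16); the 2 knockout falls became 5 with library size alone, 1 with no filter, 4 with the stricter filter, unshared reads or DESeq2, 0 with introns scaled as exons and 8 with only the groups compared (0 to 7). Differences of responses: exon 44 (23 to 79), intron 138 (69 with introns scaled as exons, 86 to 196), ratio 4 (7 with the stricter filter, 0 with introns scaled as exons, 8 with DESeq2, 0 to 40). Untreated ratio: 8 became 5 with the stricter filter, 4 with introns scaled as exons and 3 with only the groups compared (3 to 13). In unshared reads the shares held by very long genes were 1.49% (Parent control) and 1.56% (SLFN11KO control) of exon reads, and 9.66%, 7.93%, 9.96% and 9.86% of intron reads in Parent control, Parent camptothecin, SLFN11KO control and SLFN11KO camptothecin. Unshared reads also turned the direction of KCNMB2 (knockout introns -0.43), PDE10A (parent introns -0.44), ATG10 (untreated exons 0.39, untreated introns 0.0443) and AC079610.1 (untreated exons 0.0757, parent ratio -0.0238, untreated ratio -0.197). The numbers did not pair the libraries; with the replicate block 274 members fell in parent and 237 in knockout exon reads, and 36, 144 and 3 differed in response. Over the named genes and alternatives, 19248 values kept direction and call, 758 lost the call, 307 gained one and 7 changed sign. The cause of these shifts was not tested. Few exon reads left 431 of the 889 genes untested.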
